A study of Mus musculus with 25 samples.

Results

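The genes described are 10 members of the TGF beta superfamily pathway, chosen by symbol: the ligand genes Tgfb1, Tgfb2, Tgfb3, Bmp4, Inhba and Inhbb, the receptor genes Tgfbr1 and Tgfbr2, the intracellular inhibitor gene Smad7 and the secreted antagonist gene Fst. All 10 were among the 37117 genes of the count table, and all 10 were among the 12970 genes tested. The data were 3′-end RNA counts from hepatocytes sorted from mouse liver, with 500000 cells sorted for a library. There were 25 libraries in 7 groups. The study compared livers in which the coactivator YAP was raised directly or through loss of its inhibitory kinases LATS1 and LATS2, with controls for each agent.

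ApoYap ctrl (n = 4) and ApoYap Dox (n = 3) carried the ApoE-rtTA driver and the TRE-hYAP human YAP transgene. The first group was untreated and the second drank 0.2 mg/ml doxycycline with 2.5% sucrose for 1 week. Lats1/2 flox ctrl (n = 4) carried floxed Lats1 and Lats2 and was untreated. Lats1/2 KO (n = 3) was the same genotype 1 week after AAV8.TBG.PI.Cre.rBG, a virus that expresses Cre recombinase from the hepatocyte-restricted TBG promoter. BL/6 ctrl (n = 4) was untreated wild type, BL/6 Dox (n = 4) received the same doxycycline water for 1 week, and BL/6 AAV-Cre (n = 3) was taken 24 hours after the same virus. The virus control and the knockout therefore differed in time as well as genotype, and these cannot be told apart. The labels give no age, and do not say whether the libraries of a group came from separate animals, so p-values measure only the spread between these libraries.

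TGF beta proteins are secreted in a latent form and, once released, bring together the receptors TGFBR2 and TGFBR1, which phosphorylate SMAD2 and SMAD3. Activins are dimers of the chains encoded by Inhba and Inhbb and use other receptors to reach the same SMADs, while BMPs such as BMP4 act through SMAD1 and SMAD5. SMAD7 blocks the activated type I receptors and is itself induced by the pathway, and follistatin, the product of Fst, binds activins and keeps them from their receptors. In liver, TGF beta restrains hepatocyte growth and drives matrix production by stellate cells, activin inhibits hepatocyte proliferation, and BMPs set hepcidin expression and iron balance.

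Promoters, from 250 bases before to 50 after the start of transcription, were taken from RefSeq on GRCm38.p6, where 7 of the 10 genes had an entry. Those of 5 ligand genes are printed because these ligands hold most of the changes described below. Capitals mark the GC box GGGCGG or the TATA box TATAAA on either strand, so that CCGCCC is a GC box on the opposite strand. The Tgfb1 window lies at chr7:25686752-25687051 (plus strand), Tgfb2 at chr1:186705940-186706239 (minus), Bmp4 at chr14:46390620-46390919 (minus), Inhba at chr13:16011601-16011900 (plus) and Inhbb at chr1:119422199-119422498 (minus).
Tgfb1: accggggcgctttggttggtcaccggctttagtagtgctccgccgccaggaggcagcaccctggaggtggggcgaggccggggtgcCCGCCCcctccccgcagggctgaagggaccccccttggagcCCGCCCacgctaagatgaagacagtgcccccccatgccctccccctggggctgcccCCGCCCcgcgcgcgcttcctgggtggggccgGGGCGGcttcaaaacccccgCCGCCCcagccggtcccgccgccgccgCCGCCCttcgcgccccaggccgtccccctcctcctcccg
Tgfb2: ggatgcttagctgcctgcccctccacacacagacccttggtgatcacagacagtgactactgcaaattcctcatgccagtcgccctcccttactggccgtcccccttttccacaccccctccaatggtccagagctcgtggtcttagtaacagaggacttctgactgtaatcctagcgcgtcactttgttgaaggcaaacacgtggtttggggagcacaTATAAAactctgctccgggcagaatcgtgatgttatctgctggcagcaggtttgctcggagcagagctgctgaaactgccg
Bmp4: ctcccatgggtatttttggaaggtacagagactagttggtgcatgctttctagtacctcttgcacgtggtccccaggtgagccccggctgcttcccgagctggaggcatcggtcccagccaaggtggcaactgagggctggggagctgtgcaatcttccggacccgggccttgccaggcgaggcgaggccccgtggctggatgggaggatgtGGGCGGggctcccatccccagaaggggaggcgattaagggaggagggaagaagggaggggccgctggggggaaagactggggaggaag
Inhba: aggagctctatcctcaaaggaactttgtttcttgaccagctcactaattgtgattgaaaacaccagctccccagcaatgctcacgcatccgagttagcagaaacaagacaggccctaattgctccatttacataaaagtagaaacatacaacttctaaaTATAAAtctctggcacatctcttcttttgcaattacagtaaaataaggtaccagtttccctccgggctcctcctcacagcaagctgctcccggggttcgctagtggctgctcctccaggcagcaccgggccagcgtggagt
Inhbb: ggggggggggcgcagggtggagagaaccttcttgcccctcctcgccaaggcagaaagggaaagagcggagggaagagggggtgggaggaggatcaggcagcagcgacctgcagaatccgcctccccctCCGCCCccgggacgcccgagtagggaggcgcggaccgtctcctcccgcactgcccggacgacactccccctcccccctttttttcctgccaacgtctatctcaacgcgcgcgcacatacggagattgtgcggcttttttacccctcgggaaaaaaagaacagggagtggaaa

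The Tgfb1 window held 6 GC boxes and 77% G and C bases, with no TATA box. Bmp4 had 1 GC box, 38 bases before the start, and Inhbb 1 GC box, 122 bases before it. Tgfb2 had a TATA box 31 bases before the start and Inhba 1 at 91 bases before it. GC boxes occurred in 35.7% of all 32851 mouse promoter windows of this length, and TATA boxes in 13.6%. The letters GGAATG, the core bound by the TEAD partners of YAP, were not in any of the 8 windows of the 7 genes, and occur in 14.7% of all windows. Neither the AP-1 motif TGANTCA (7.81% of all windows) nor the SMAD palindrome GTCTAGAC (0.213%) was in these 8 windows. No promoter was printed for Tgfb3, Smad7 or Fst.

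Library totals ran from 8107539 to 16515330 counts. Levels are in CPM, counts scaled to the library total with TMM factors, on which 1 count was worth 0.0361 to 0.141 CPM. The TMM factors were 1.68 to 1.84 in ApoYap Dox against 0.909 to 0.979 in ApoYap ctrl. They were 1.14 to 1.29 in Lats1/2 KO against 0.830 to 0.889 in Lats1/2 flox ctrl, so levels in both models depend on this scaling. Lats1 was at 2.97 to 5.10 CPM in Lats1/2 KO and 12.3 to 14.9 CPM in Lats1/2 flox ctrl, without overlap, whereas Lats2 overlapped (7.70 to 17.8 against 12.9 to 13.7 CPM). A 3′ count may lie outside the deleted part, since the labels do not name the floxed exons. The YAP transgene is human, and the mouse Yap1 row (17.0 to 24.8 CPM in ApoYap Dox, 41.0 to 46.9 in ApoYap ctrl) does not check it. The 12 hepatocyte markers summed to 30387 to 44304 CPM in ApoYap Dox against 86071 to 109688 in ApoYap ctrl, with all 12 called lower (median log2 change -2.50). They summed to 58160 to 64100 CPM in Lats1/2 KO against 92731 to 105532 in Lats1/2 flox ctrl, with 10 of 12 lower (-0.85), and to at least 92496 CPM in the BL/6 groups. The mitochondrial share of counts was 9.15% to 12.2% in ApoYap Dox against 21.5% to 24.8% in ApoYap ctrl, and 25.1% to 29.2% in Lats1/2 KO against 27.8% to 31.6% in Lats1/2 flox ctrl. Mesothelial markers summed to at most 0.89 CPM. The sorted fractions of ApoYap Dox and Lats1/2 KO held more counts of marker genes of other cell types. The 14 macrophage markers summed to 7040 to 11465 CPM in ApoYap Dox against 112 to 245 in ApoYap ctrl, and to 737 to 1691 CPM in Lats1/2 KO against 107 to 308 in Lats1/2 flox ctrl. All 14 were higher in the first comparison and 13 in the second, led in ApoYap Dox by Cd5l, C1qb and Lyz2. Of the tested markers of neutrophils 4 of 4 were higher with induction and 2 of 4 in the knockout, and of platelets 3 of 3 and 1 of 3. Cholangiocyte markers summed to 149 to 224 CPM in ApoYap Dox against 41.5 to 55.4 in ApoYap ctrl. Their sum was 91.6 to 290 CPM in Lats1/2 KO against 46.6 to 89.1 in Lats1/2 flox ctrl. Of 3 tested, 1 was higher and 1 lower with induction, and 2 were higher and 0 lower in the knockout. These shifts accompany the changes described below for Yap induction and the Lats1/2 knockout, and their part in those changes was not tested. In doxycycline alone and AAV-Cre alone, 0 of the 14 macrophage and 0 of the 12 hepatocyte markers were called. In these bulk libraries fewer cells of a type and less RNA per cell cannot be told apart.

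Yap induction, the comparison of ApoYap Dox with ApoYap ctrl, changed 9 of the 10 genes at an adjusted p under 0.05 in edgeR's quasi-likelihood test, 8 higher and 1 lower. Of all genes tested, 67.0% passed the same threshold, 35.0% higher and 32.0% lower, so most of the transcriptome moved. In all 9 the libraries of the groups did not overlap, 8 higher and 1 lower (background 36.7% and 32.6%). The Lats1/2 knockout, compared with Lats1/2 flox ctrl, changed 7 of 10, 6 higher and 1 lower, against 38.0% of all genes (20.6% higher, 17.4% lower). The 6 higher genes did not overlap between groups (background 20.9%), and none was lower without overlap (background 18.8%). The median log2 fold change of all genes was 0.07 and -0.03. Tgfb1, Tgfb2, Tgfb3 and Inhbb passed the filter on low counts through the libraries in which they were high, so their being tested and being higher are not independent.

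**Figure D1:**
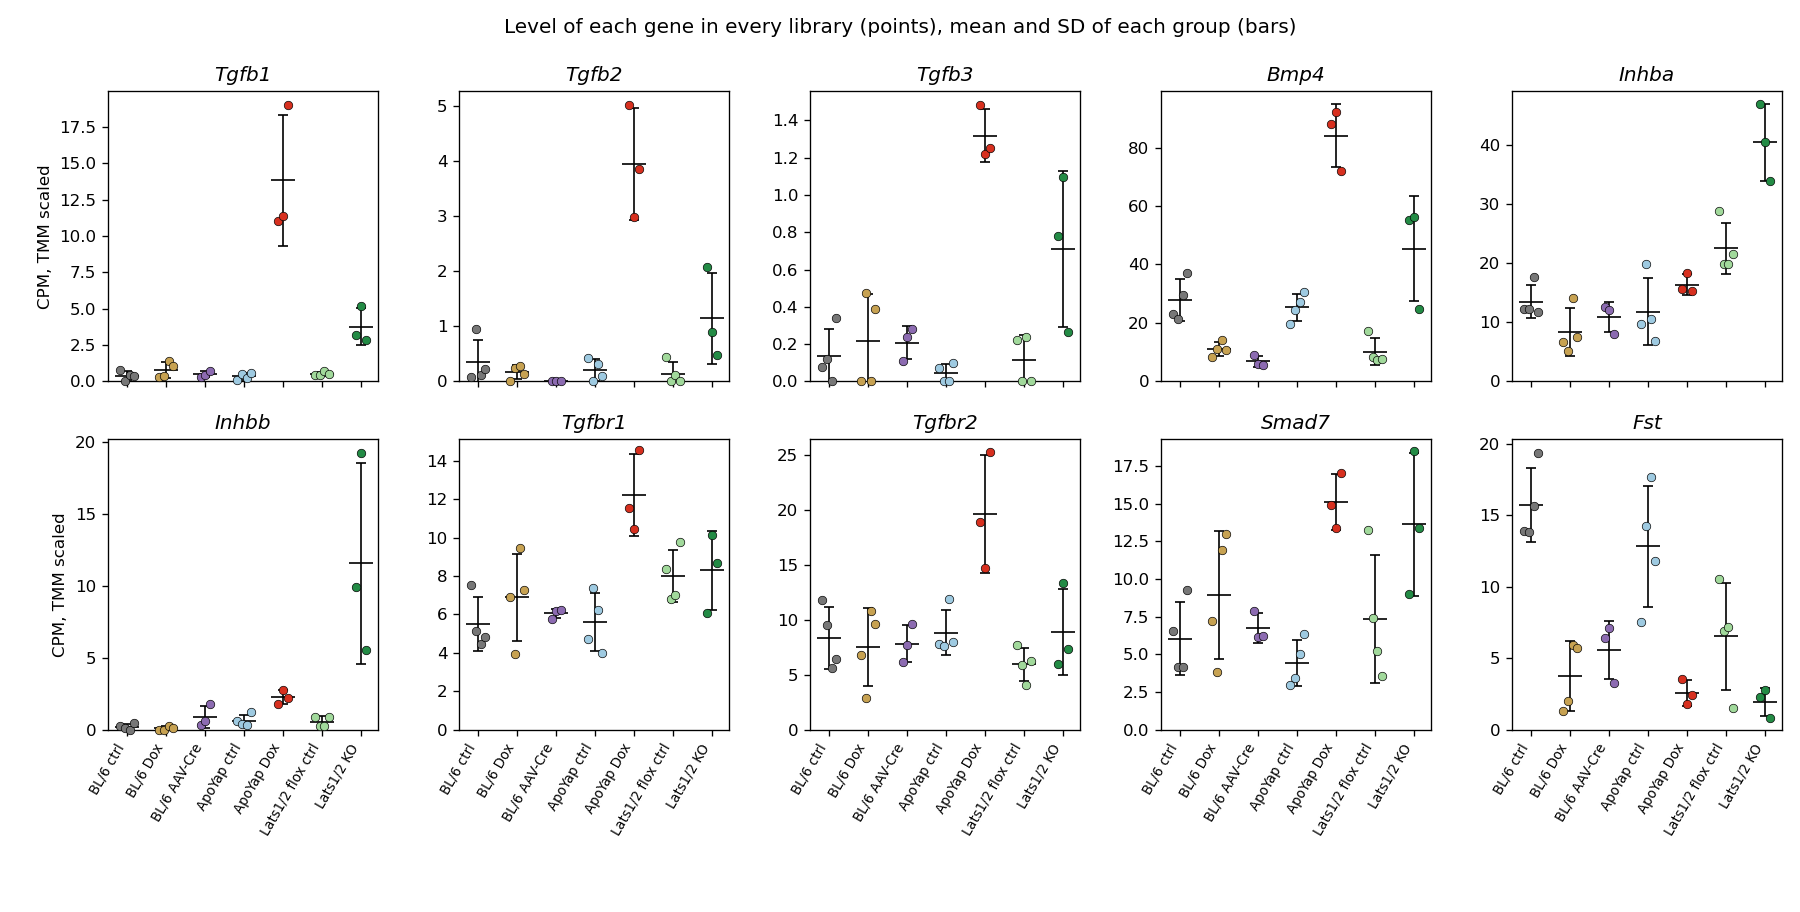
Level of each of the 10 genes in CPM (linear axis from 0) in all 25 libraries; points are libraries, and bars are the group mean with 1 SD. Bmp4 reaches 71.8 to 92.1 CPM in ApoYap Dox, Inhbb is highest in Lats1/2 KO (5.52 to 19.2 CPM), and Fst is highest in the untreated BL/6 and ApoYap groups.

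Tgfb1, the main TGF beta isoform of immune cells, was near the detection floor in untreated livers. It stood at 0.0706, 0.503, 0.208 and 0.602 CPM in the 4 ApoYap ctrl libraries and at 11.1, 11.4 and 19.0 CPM in the 3 ApoYap Dox libraries. Every induced library was thus far above every control, and the log2 fold change was 5.33 (SE 0.50, adjusted p = 1.27e-09 by edgeR). In the knockout Tgfb1 rose to a smaller extent, from 0.439, 0.454, 0.715 and 0.493 CPM in Lats1/2 flox ctrl to 3.20, 5.20 and 2.86 CPM in Lats1/2 KO. The change was 2.82 on the log2 scale (SE 0.51, adjusted p = 1.11e-04, edgeR). The difference between the knockout and induction effects was called for 3 of the 10 genes, 1 higher and 2 lower, against 29.8% of all genes (17.4% higher, 12.4% lower), and Tgfb1 was among them at -2.51 (SE 0.78, adjusted p = 0.017, edgeR). Without ApoYap Dox 3, the highest library, it was -2.21 with an adjusted p of 0.051.

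Set against marker counts, Tgfb1 gave different pictures by cell type. There were 1.85 Tgfb1 counts per 1000 counts of the 14 macrophage markers in ApoYap ctrl and 1.61 in ApoYap Dox, where the 3 libraries were within 1.57 to 1.66. In Lats1/2 flox ctrl the value was 2.95 (libraries 1.42 to 4.56) and in Lats1/2 KO 3.38 (3.08 to 4.34). Relative to these markers, then, the libraries of treated and control groups overlapped in both models. The control values rest on 15 Tgfb1 counts in ApoYap ctrl, where libraries ran from 0.631 to 3.25, and on 19 in Lats1/2 flox ctrl. With so few counts the overlap cannot show that the ratio was unchanged. Per 1000 counts of endothelial markers Tgfb1 was at 0.868 to 3.82 in ApoYap ctrl and 13.7 to 16.3 in ApoYap Dox, without overlap, and at 1.86 to 6.44 in Lats1/2 flox ctrl and 5.09 to 7.56 in Lats1/2 KO. Per 1000 counts of stellate cell and fibroblast markers it was at 0.997 to 5.74 and 48.0 to 68.5 in the first pair of groups, and at 4.88 to 7.47 and 6.88 to 11.05 in the second. The part of macrophage RNA in the Tgfb1 change was not tested.

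**Figure D2:**
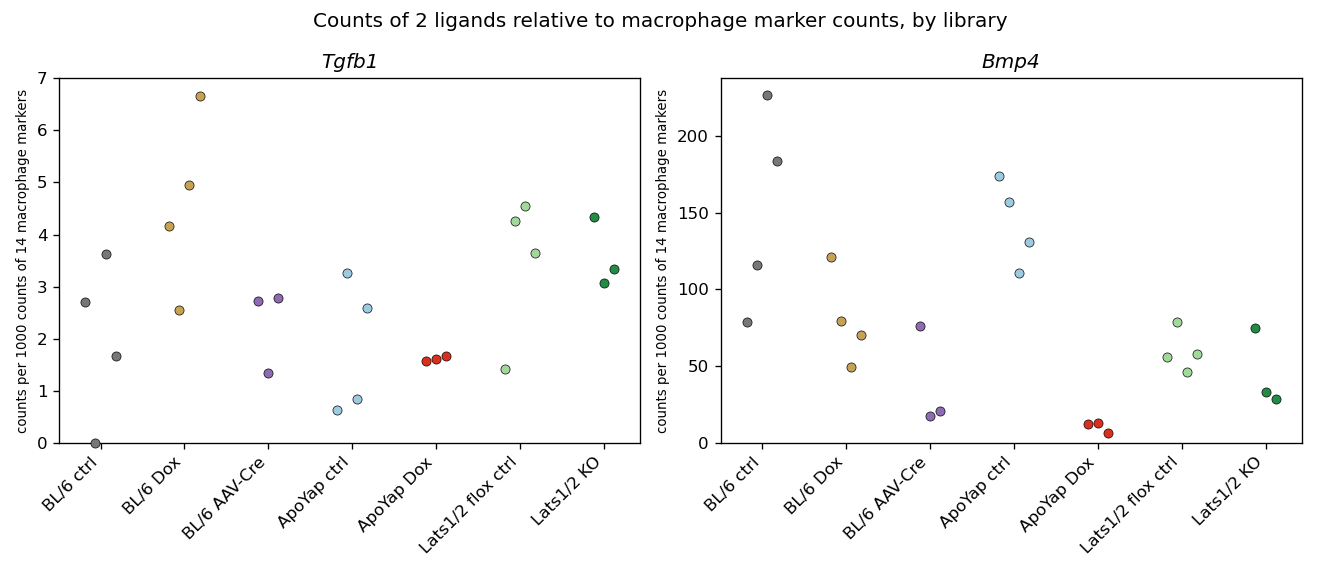
Counts of Tgfb1 (left) and Bmp4 (right) per 1000 counts of the 14 macrophage markers, for every library (points; linear axes from 0). Tgfb1 in ApoYap Dox (1.57 to 1.66) falls inside the ApoYap ctrl range, which rests on 15 Tgfb1 counts, whereas Bmp4 falls from 139 in ApoYap ctrl to 10.1 in ApoYap Dox when counts of each group are pooled.

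Tgfb2, an isoform of epithelial and mesenchymal cells, had 10 counts in all 4 ApoYap ctrl libraries together, at 0.424, 0, 0.312 and 0.10 CPM. The ApoYap Dox libraries were at 5.02, 2.99 and 3.86 CPM, and the log2 fold change was 4.13 (SE 0.72, adjusted p = 2.52e-05, edgeR). Lats1/2 flox ctrl was at 0.439, 0, 0.119 and 0 CPM. Lats1/2 KO, at 2.08, 0.890 and 0.477 CPM, was above all of them but spread widely, and its lowest library lay close to the highest control. The change was 2.92 (SE 0.89, adjusted p = 0.012, edgeR), and without Lats1/2 KO 1 it was 2.21 with an adjusted p of 0.086.

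Tgfb3, the third isoform, was the least covered gene of the set. ApoYap ctrl held 2 counts in all (0.0706, 0, 0 and 0.10 CPM), and ApoYap Dox 94 counts (1.48, 1.22 and 1.25 CPM). The ratio of scaled counts was 30.5 with a 95% counting interval of 8.20 to 255, and the adjusted p was 6.92e-05 (edgeR). In Lats1/2 KO the libraries were at 0.778, 1.09 and 0.265 CPM, and in Lats1/2 flox ctrl at 0.219, 0, 0.238 and 0 CPM. The third knockout library was just above the controls. The log2 fold change of 2.55 (SE 0.89, adjusted p = 0.025, edgeR) did not hold when any of Lats1/2 flox ctrl 2 or 4 or Lats1/2 KO 1 or 2 was left out (adjusted p 0.056 to 0.14).

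Bmp4, which acts through the BMP arm of the pathway, was well covered in every library and rose in both models. It was at 19.5, 24.3, 27.1 and 30.6 CPM in ApoYap ctrl and at 88.1, 92.1 and 71.8 CPM in ApoYap Dox, with no overlap. The log2 fold change was 1.73 (SE 0.28, adjusted p = 1.31e-05, edgeR). Lats1/2 flox ctrl 1 held 17.2 CPM while the other 3 libraries of its group held 8.40, 7.27 and 7.79 CPM. The knockout libraries, at 55.3, 56.2 and 24.7 CPM, were all higher, and the log2 change was 2.15 (SE 0.30, adjusted p = 1.07e-05, edgeR). The knockout effect less the induction effect was 0.42 (95% interval -0.43 to 1.28, adjusted p = 0.48, edgeR). The Bmp4 count per 1000 macrophage marker counts was lower in ApoYap Dox (6.26 to 13.0) than in ApoYap ctrl (111 to 174), and in the knockout the groups overlapped (28.7 to 75.0 against 46.3 to 78.6).

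Markers of the cells that surround hepatocytes moved with Bmp4 as well. The 14 endothelial markers summed to 698 to 1237 CPM in ApoYap Dox against 81.4 to 201 in ApoYap ctrl, and to 424 to 1021 CPM in Lats1/2 KO against 86.8 to 236 in Lats1/2 flox ctrl. Of the 14 stellate cell and fibroblast markers 7 were called higher with induction and 13 in the knockout. Their sum was 178 to 278 against 70.9 to 153 CPM and 259 to 756 against 86.3 to 95.6 CPM, led by Dcn, Ecm1 and collagen genes. Per 1000 counts of these markers Bmp4 overlapped between groups in both models (259 to 519 against 200 to 278 with induction, 74.4 to 156 against 76.0 to 191 in the knockout). Per 1000 endothelial marker counts it was lower in ApoYap Dox (58.0 to 132 against 152 to 240) and overlapped in the knockout (50.4 to 130 against 65.5 to 90.6). The part of these cells in the Bmp4 change was not tested.

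Inhba, the activin A chain, was called in the knockout and not with induction. ApoYap ctrl was at 9.68, 19.9, 10.6 and 6.82 CPM and ApoYap Dox at 15.6, 18.3 and 15.2 CPM. ApoYap ctrl 2 was above all induced libraries, the groups overlapped, and the log2 fold change of 0.47 (95% interval -0.13 to 1.07) was not called (adjusted p = 0.15, edgeR). Without that library it was 0.85 (adjusted p = 0.0071, edgeR). On CPM without TMM factors the groups did not overlap, at 27.6 to 30.8 in ApoYap Dox against 6.33 to 18.2 in ApoYap ctrl. Scaled by total counts alone the change was called, at 1.39 (adjusted p = 1.99e-04, edgeR). In Lats1/2 KO the libraries were at 46.9, 40.4 and 33.9 CPM, all above the Lats1/2 flox ctrl libraries at 28.9, 19.9, 19.8 and 21.5 CPM. That change was 0.84 (SE 0.28, adjusted p = 0.022, edgeR), and it was not called without Lats1/2 flox ctrl 2 or 3 or Lats1/2 KO 1 or 2 (0.72 to 0.84, adjusted p 0.057 to 0.090). The difference between the effects in both models was not called, at 0.37 (95% interval -0.48 to 1.21).

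Inhbb, the activin B chain, had the largest knockout effect of the 10 genes. It was at 9.95, 19.2 and 5.52 CPM in Lats1/2 KO and at 0.878, 0.227, 0.238 and 0.887 CPM in Lats1/2 flox ctrl. All knockout libraries were above all controls but differed among themselves by more than 3-fold, and the log2 fold change was 4.32 (SE 0.57, adjusted p = 2.48e-06, edgeR). With Yap induction it rose from 0.565, 0.419, 0.312 and 1.20 CPM to 1.77, 2.76 and 2.22 CPM, which is 1.84 on the log2 scale (SE 0.56, adjusted p = 0.0054, edgeR). The effect was larger in the knockout by 2.47 (SE 0.83, adjusted p = 0.026, edgeR). This difference was not called without any 1 of ApoYap ctrl 4, ApoYap Dox 1, Lats1/2 flox ctrl 2 or 3 or Lats1/2 KO 2 (1.90 to 2.32, adjusted p 0.053 to 0.097).

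**Figure D3:**
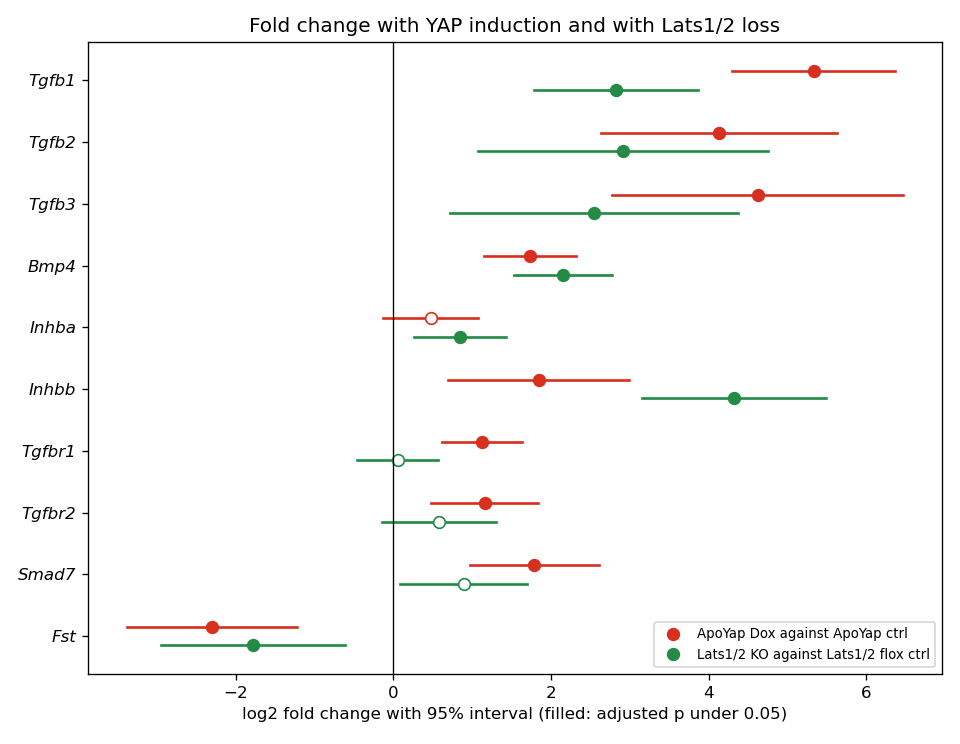
Log2 fold change with its 95% interval for ApoYap Dox against ApoYap ctrl (red) and Lats1/2 KO against Lats1/2 flox ctrl (green); filled points have an adjusted p under 0.05. Tgfb1 moved by 5.33 and 2.82, Inhbb by 1.84 and 4.32, and Fst is the sole gene below 0.

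Both receptor genes rose with Yap induction. Tgfbr1, the type I receptor that phosphorylates SMADs, went from 4.73, 7.38, 6.23 and 4.01 CPM to 11.6, 10.5 and 14.6 CPM. The log2 fold change was 1.12 (SE 0.24, adjusted p = 2.65e-04, edgeR), and no libraries overlapped. Tgfbr2, the type II receptor that binds the ligand, went from 7.77, 7.63, 11.9 and 8.02 CPM to 19.0, 14.7 and 25.3 CPM, a change of 1.16 (SE 0.33, adjusted p = 0.0035, edgeR).

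In the knockout neither receptor gene was called, and the libraries overlapped. Tgfbr1 was at 6.05, 10.1 and 8.70 CPM in Lats1/2 KO against 8.34, 6.81, 7.03 and 9.76 CPM in Lats1/2 flox ctrl, with a log2 difference of 0.06 (95% interval -0.46 to 0.57, adjusted p = 0.88, edgeR). Tgfbr2 was at 5.97, 13.4 and 7.32 CPM against 7.68, 5.91, 4.05 and 6.21 CPM, a difference of 0.58 (-0.15 to 1.30, adjusted p = 0.20). The smaller Tgfbr1 effect in the knockout was called as a difference, at -1.07 (SE 0.35, adjusted p = 0.023, edgeR). Without ApoYap Dox 3 or Lats1/2 KO 1 it was -0.92 and -0.88 (adjusted p 0.077 and 0.079). For Tgfbr2 the difference was -0.58 (95% interval -1.58 to 0.42) and was not called.

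Smad7, the inhibitor that the pathway induces, rose with Yap induction from 2.97, 3.44, 4.99 and 6.32 CPM to 14.9, 13.4 and 17.0 CPM. Every induced library was above every control, and the log2 change was 1.78 (SE 0.39, adjusted p = 3.96e-04, edgeR). Lats1/2 KO was at 9.0, 18.5 and 13.4 CPM and Lats1/2 flox ctrl at 13.3, 7.38, 5.24 and 3.55 CPM. The first of these controls lay inside the knockout range, and the difference of 0.89 (95% interval 0.08 to 1.70) was not called (adjusted p = 0.077, edgeR). Without that control it was 1.34 (adjusted p = 0.0085, edgeR), and without Lats1/2 KO 1 it was 1.11 (adjusted p = 0.048).

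Fst, the activin antagonist, fell in both models, and no other of the 10 genes did in either. ApoYap ctrl was at 7.56, 14.3, 17.7 and 11.8 CPM and ApoYap Dox at 3.54, 1.76 and 2.41 CPM, without overlap. The log2 fold change was -2.30 (SE 0.52, adjusted p = 5.51e-04, edgeR). In Lats1/2 flox ctrl the libraries were at 10.5, 6.93, 7.15 and 1.48 CPM, and in Lats1/2 KO at 2.25, 2.74 and 0.796 CPM. The fourth control lay inside the knockout range, so the groups overlapped, and the change was -1.78 (SE 0.56, adjusted p = 0.015, edgeR). It was -2.13 without that library and was lost without Lats1/2 flox ctrl 1 (-1.44, adjusted p = 0.055) or Lats1/2 KO 3 (-1.37, adjusted p = 0.078).

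The controls for the agents bear on Fst and Bmp4 in particular. In wild-type mice doxycycline alone was associated with no call among the 10 genes in edgeR (background 0.123% of genes), although 3 had an unadjusted p under 0.05 and DESeq2 called 2. Fst was at 13.9, 13.8, 15.7 and 19.4 CPM in BL/6 ctrl and at 1.27, 2.02, 5.95 and 5.70 CPM in BL/6 Dox, without overlap. The log2 difference was -2.04 (SE 0.48), with an adjusted p of 0.12 in edgeR and 0.0035 in DESeq2. Bmp4 was at 22.9, 21.2, 29.4 and 37.1 CPM in BL/6 ctrl and at 8.18, 11.1, 14.2 and 10.9 CPM in BL/6 Dox, again without overlap, a difference of -1.31 (SE 0.29, adjusted p = 0.073 in edgeR and 0.0023 in DESeq2). Those were the 2 genes that did not overlap, both lower (background 3.29%), and 0 were higher without overlap (background 3.33%). Stellate cell and fibroblast markers stood at 25.2 to 93.0 CPM in BL/6 Dox and 71.7 to 182 in BL/6 ctrl, with 0 of 14 called, and their part was not tested.

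In the virus control Bmp4 and Fst again lay below BL/6 ctrl. With AAV-Cre alone 1 of the 10 genes was called, Bmp4, which was lower, against 0.301% of all genes (0.254% higher, 0.0463% lower). BL/6 AAV-Cre was at 8.97, 6.03 and 5.49 CPM, below all BL/6 ctrl libraries, which is -2.02 on the log2 scale (SE 0.33, adjusted p = 0.0074, edgeR). The call was lost without BL/6 AAV-Cre 2 or 3 (-1.94 and -1.88, adjusted p 0.052 and 0.097). Fst was at 6.41, 7.10 and 3.26 CPM, also below every BL/6 ctrl library, but was not called (-1.50, SE 0.51, adjusted p = 0.20, edgeR). Inhbb was at 0.320, 0.591 and 1.77 CPM against 0.236, 0.119, 0 and 0.451 CPM, a difference of 2.10 (SE 0.79) that was not called either (adjusted p = 0.24, edgeR). Tgfb2 had 0 counts in the 3 BL/6 AAV-Cre libraries and 12 in BL/6 ctrl, of which 8 were in BL/6 ctrl 2. These were the 3 genes lower without overlap, Bmp4, Fst and Tgfb2 (background 7.52%), and 0 were higher without overlap (background 8.30%).

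Taking the effect of doxycycline in wild type from that in ApoYap mice left 6 of the 10 genes called, all higher, against 54.1% of all genes (26.7% higher, 27.4% lower). The differences of log2 effects were 4.44 for Tgfb1 (SE 0.84, adjusted p = 7.98e-05), 4.98 for Tgfb2 (SE 1.27, adjusted p = 0.0020), 3.98 for Tgfb3 (SE 1.51, adjusted p = 0.029), 3.04 for Bmp4 (SE 0.40, adjusted p = 1.55e-06), 1.14 for Inhba (SE 0.41, adjusted p = 0.022) and 1.31 for Tgfbr2 (SE 0.47, adjusted p = 0.021), all by edgeR. Inhba, which was not called against its own controls, passed here. BL/6 Dox differed from BL/6 ctrl by -0.67 (SE 0.29, adjusted p = 0.36, edgeR). For Fst the net effect was -0.26 (95% interval -1.68 to 1.17, adjusted p = 0.78, edgeR), so a difference between the changes in ApoYap and wild-type mice was not detectable. Inhbb (2.62, adjusted p = 0.083), Tgfbr1 (0.81, adjusted p = 0.052) and Smad7 (1.21, adjusted p = 0.068) were not called in edgeR, whereas DESeq2 called all 3. BL/6 Dox 1 and 2 (25.4 and 22.4) lay apart from BL/6 Dox 3 and 4 (4.66 and 8.29) on the second principal component. On the first, BL/6 Dox 2 (-51.5) was nearer to BL/6 Dox 4 (-44.0) than to BL/6 Dox 1 (-72.6). Without both BL/6 Dox 1 and 2, the net effects of Inhba (0.76, adjusted p = 0.14) and Tgfbr2 (0.87, adjusted p = 0.097) were not called. Leaving out single libraries ended the call of Tgfb3 (BL/6 ctrl 4, 3.12, or ApoYap ctrl 2, 3.62), of Inhba (BL/6 ctrl 3, 0.99, BL/6 Dox 2, 0.96, or ApoYap Dox 2, 1.05) and of Tgfbr2 (BL/6 ctrl 1 or ApoYap Dox 3, both 1.09).

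Net of AAV-Cre, 4 of the 10 genes were called higher in the knockout, against 24.4% of all genes (13.0% higher, 11.4% lower). Bmp4 had the firmest of these, at 4.17 (SE 0.44, adjusted p = 2.32e-06, edgeR), and was called in all 14 fits that left out 1 library. Its baselines were unequal, 10.2 CPM in Lats1/2 flox ctrl and 27.7 in BL/6 ctrl on average, and the value of 4.17 includes that difference. Lats1/2 KO, at 24.7 to 56.2 CPM, lay above BL/6 AAV-Cre (5.49 to 8.97) without overlap, but overlapped with BL/6 ctrl (21.2 to 37.1). Tgfb2 was called too (adjusted p = 0.0066, edgeR), but with no count in the virus control its size is not given. Tgfb1, at 2.55 (SE 0.87, adjusted p = 0.035, edgeR), kept its call in 7 of 14 such fits, and fell to 1.90 (adjusted p = 0.19) without BL/6 ctrl 1. Inhba, at 1.16 (SE 0.42, adjusted p = 0.048, edgeR), kept its call in 2 of 14 (0.98 to 1.30). Inhbb was 2.22 (95% interval -0.07 to 4.50, adjusted p = 0.15) and Fst -0.28 (-1.81 to 1.25, adjusted p = 0.82, edgeR). This compares changes from unequal baselines, 6.52 CPM in Lats1/2 flox ctrl and 15.7 in BL/6 ctrl on average, and the Fst levels themselves were lower in Lats1/2 KO (0.796 to 2.74 CPM) than in BL/6 AAV-Cre (3.26 to 7.10), without overlap.

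**Figure D4:**
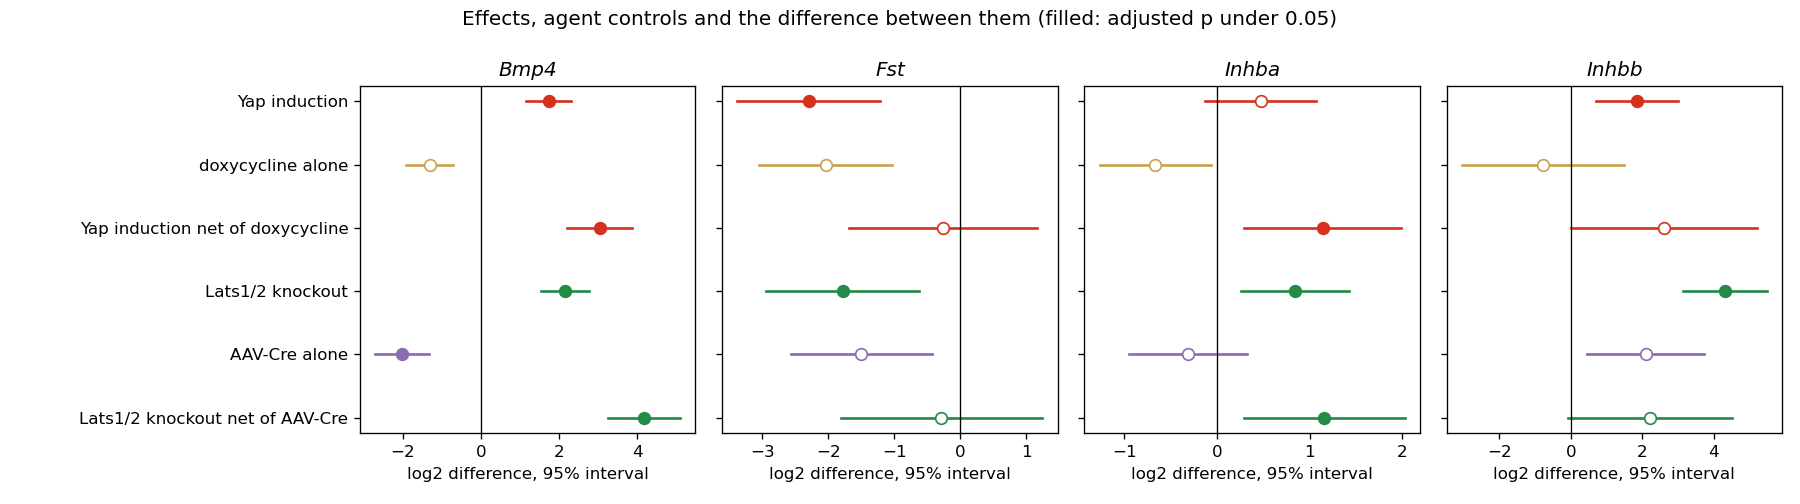
Log2 differences with 95% intervals for Bmp4, Fst, Inhba and Inhbb in each model, in its agent control in wild-type mice, and for the model less the control; filled points have an adjusted p under 0.05. Fst lies between -2.30 and -1.50 in both models and both controls and near 0 in the net effects, whereas Bmp4 is below 0 in both controls and reaches 3.04 and 4.17 net.

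The untreated strains were not alike for every gene. ApoYap ctrl against BL/6 ctrl gave 0 calls among the 10 in edgeR (background 0.439%, 0.146% higher and 0.293% lower), with 0 at an unadjusted p under 0.05, and none in DESeq2 (1 unadjusted). In 0 of the 10 genes did the groups not overlap (background 3.45% higher, 3.59% lower). Lats1/2 flox ctrl gave 1 call, Bmp4, which was lower than in BL/6 ctrl (log2 change -1.44, SE 0.29, adjusted p = 0.0066, edgeR), against a background of 4.12% (3.15% higher, 0.971% lower). Its libraries did not overlap with those of BL/6 ctrl, and neither did those of Fst (-1.27, adjusted p = 0.13), which was also lower (background 5.89%), or of Inhba (0.74, adjusted p = 0.14), which was higher (background 7.83%). The Bmp4 group means thus ran from 84.0 ± 10.8 CPM in ApoYap Dox (SD, n = 3) and 45.4 ± 17.9 in Lats1/2 KO (n = 3) through 27.7 ± 7.19 in BL/6 ctrl (n = 4) and 25.4 ± 4.68 in ApoYap ctrl (n = 4) to 11.1 ± 2.44 in BL/6 Dox (n = 4), 10.2 ± 4.73 in Lats1/2 flox ctrl (n = 4) and 6.83 ± 1.87 in BL/6 AAV-Cre (n = 3). Neighbours in this order overlapped, except the first with the second and the fourth with the fifth.

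Fst ran the other way, from 15.7 ± 2.59 CPM in BL/6 ctrl (n = 4) and 12.8 ± 4.25 in ApoYap ctrl (n = 4) to 2.57 ± 0.90 in ApoYap Dox (n = 3) and 1.93 ± 1.01 in Lats1/2 KO (n = 3). All neighbours in its order overlapped. Inhba was highest in Lats1/2 KO at 40.4 ± 6.49 CPM (n = 3), then in Lats1/2 flox ctrl at 22.5 ± 4.31 (n = 4) and ApoYap Dox at 16.4 ± 1.70 (n = 3), with no overlap between these neighbours. The other 4 groups had means of 8.35 to 13.5 CPM and overlapped.

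The other genes of the pathway were taken from a list of 98, of which 96 were in the table and 59 were tested. With Yap induction 37 were higher, 9 were lower and 13 were not called, and their median change was 0.88 (log2), where 35.0% of all genes were higher and 32.0% lower. Net of doxycycline 30 were higher and 8 lower (26.7% and 27.4% of all genes). In the knockout 25 were higher, 3 lower and 31 not called, with a median of 0.56, against 20.6% and 17.4% of all genes. Net of AAV-Cre 14 were higher and 5 lower (13.0% and 11.4% of all genes). With total counts the numbers were 48 higher and 3 lower for induction, and 35 and 1 for the knockout. Each list count below is to be read against these shares. Genes of the 59 such as Rgmb passed the filter on low counts through libraries in which they were high, so the counts of higher genes are not independent of the filter. Among 8 further ligand genes tested, 4 rose in each comparison. They included Gdf2, which encodes the circulating BMP9 (1.41 and 2.54), and the BMP ligand gene Bmp2 (2.78 and 2.17), which sinusoidal endothelial cells make. Inhbc, an activin chain typical of hepatocytes, fell with Yap induction by 1.31 (SE 0.20, adjusted p = 1.96e-06, edgeR), as did Inhbe, named after its values were seen. Inhbc was at -0.09 in the knockout (adjusted p = 0.73), and the difference of 1.22 was called (SE 0.27, adjusted p = 0.0012, edgeR).

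Of 12 further receptor and co-receptor genes, 6 rose and 2 fell with Yap induction, and 4 rose and 0 fell in the knockout. Net of the agents 4 were higher and 1 lower, and 3 higher and 0 lower, and with total counts 11 were higher and 0 lower with induction. Acvrl1, the type I receptor for BMP9, rose by 4.53 and 2.69, and its co-receptor Eng by 2.65 and 2.57. Both are mainly endothelial genes, and all 14 endothelial markers were higher in both comparisons (median log2 change 2.89 and 2.29). The part of endothelial RNA in the Acvrl1 and Eng changes was not tested. Rgmb, a BMP co-receptor, rose by 3.48 with induction and was at 0.98 in the knockout (adjusted p = 0.25, edgeR). Only ApoYap Dox (2.08 to 3.43 CPM) had all its libraries above the filter's floor of 0.936 CPM for Rgmb, and ApoYap ctrl held 10 counts. The testing of Rgmb and its being higher are therefore not independent. Of 6 signalling Smads, 4 rose a little with induction, among them Smad5 (0.46), Smad1 (0.47) and Smad2 (0.45), and 0 of 6 were called in the knockout by edgeR. DESeq2 called Smad5 there (0.26, adjusted p = 0.049), and 4 of 6 were called higher with total counts, among them Smad5 (0.66) and Smad1 (0.65). Doxycycline alone was at 0.55 for Smad2 (not called, adjusted p = 0.20, edgeR), and net of it 1 of the 6 was higher, Smad1 (0.85), and 1 lower, while Smad2 was at -0.09 and Smad5 at 0.27, neither called. The Smad2 call with induction was lost without ApoYap ctrl 4, ApoYap Dox 1 or ApoYap Dox 3 (adjusted p 0.050 to 0.073). Net of AAV-Cre 0 of the 6 were higher and 1 was lower, Smad2 (-0.70, adjusted p = 0.043, edgeR). Smad2 was already higher in Lats1/2 flox ctrl than in BL/6 ctrl (0.60, adjusted p = 0.038, edgeR).

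Among 8 further intracellular inhibitors 6 rose with induction and 4 in the knockout. Net of the agents 6 and 1 were higher, and with total counts 8 and 7. Pmepa1, which sequesters receptor-activated SMADs, rose by 1.99 and 1.97. Smad6, the BMP counterpart of Smad7, rose by 2.37 and 1.15, and the latter was not called without Lats1/2 flox ctrl 3 or 4 or Lats1/2 KO 2 (0.72 to 1.10). Skil, the SnoN corepressor, rose by 2.06 with induction and was at 0.32 in the knockout (adjusted p = 0.21), with a called difference of -1.75 (SE 0.28, adjusted p = 3.33e-05, edgeR). The baselines of that difference were unequal, with Skil means of 14.1 CPM in Lats1/2 flox ctrl and 6.69 in ApoYap ctrl. Skil was already higher in Lats1/2 flox ctrl than in BL/6 ctrl, by 0.91 (SE 0.19, adjusted p = 0.0078, edgeR). The 4 further extracellular antagonists tested moved in both directions. Chrd, which encodes the BMP antagonist chordin, fell in both (-1.66 and -1.23). With total counts neither Chrd call held (-0.76, adjusted p = 0.077, and -0.79, adjusted p = 0.12), and net of AAV-Cre Chrd was at -1.27 (adjusted p = 0.11, edgeR). The Chrd call in the knockout was also lost without Lats1/2 flox ctrl 3 (-0.94) or Lats1/2 KO 2 (-1.04). Twsg1 fell by 0.85 with induction, a direction that turned to 0.054 with scaling by total counts alone, and was at 0.03 in the knockout. Bmper, named after its values were seen, rose in both.

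Of 7 genes for storage and activation of latent TGF beta, 6 rose and 1 fell with induction, and 5 rose and 1 fell in the knockout. Net of the agents 5 rose and 1 fell, and 3 rose and 1 fell. Nrros, which anchors latent TGF beta on macrophages and microglia, rose by 4.95 and 2.24. Itgav, the integrin subunit shared by receptors that release TGF beta, rose by 1.07 and 0.74. Furin, the protease that cuts the TGF beta precursor, fell in both (-1.20 and -0.63), and the second of these was not called with total counts (-0.17). Of 10 further TGF beta response genes 8 rose and 1, Fn1, fell with induction, and 6 rose in the knockout. Net of the agents 8 were higher and 1 lower, and 3 higher and 1 lower. Tgfbi, which encodes a matrix protein named for its induction by TGF beta, rose by 4.22 and 3.34. Of 9 further BMP response genes 6 rose with induction and 3 in the knockout. Net of the agents 5 were higher and 1 lower, and 1 higher and 1 lower, and with total counts 8 and 6 were higher. Id1 rose by 4.66 and 2.78. Id3 rose by 2.98 with induction and was at 0.64 in the knockout (adjusted p = 0.32). The differences were called for both, at -1.89 for Id1 (SE 0.53, adjusted p = 0.010, edgeR) and -2.34 for Id3 (SE 0.70, adjusted p = 0.016, edgeR), the latter lost without Lats1/2 KO 3 (-2.18, adjusted p = 0.051). These lists share Skil, Pmepa1, Smad6 and other genes. Col1a1, Col1a2 and Col3a1 of the TGF beta response list, named for being in both, are also among the stellate cell and fibroblast markers. All of these collagen genes were called higher with induction, and Col1a2 and Col3a1 in the knockout.

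**Figure D5:**
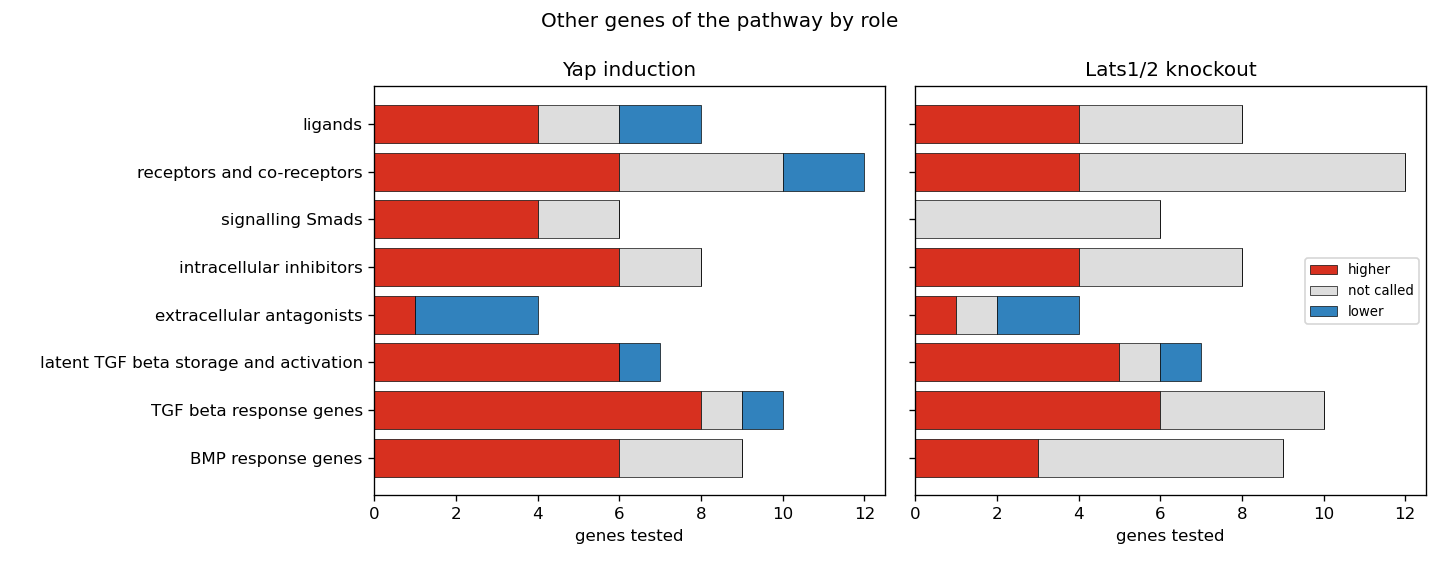
Number of other pathway genes tested in each role list that were higher (red), lower (blue) or not called (grey) at an adjusted p under 0.05, for Yap induction and the Lats1/2 knockout. Of the 59 genes, 37 were higher and 9 lower with induction, and 25 higher and 3 lower in the knockout; genes in more than 1 list are drawn in each.

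Over the 7 group means of log2 CPM, centred for each gene, the tested genes most like each of the 10 were found by the root mean square difference, a description in which all genes share the same libraries. Tgfb1 was nearest to Adap1 (0.18) and Basp1 (0.19), against a root mean square of 1.71 for its own centred profile. Tgfb2 was nearest to Zfp503 (0.11) and Galnt3 (0.21), and Tgfb3 to Igf1r (0.15) and Tox2 (0.16). Bmp4 was nearest to Ica1 (0.28) and the collagen gene Col6a2 (0.28), and Inhba to Hyls1 (0.23) and Pkhd1 (0.25). The nearest genes of Inhbb, Mybl1 (0.49) and Esco2 (0.53), and of Fst, Plet1 (0.44) and Fabp5 (0.45), lay farther off. Tgfbr1 was nearest to Arpc4 (0.08) and Phf23 (0.08), Tgfbr2 to Capzb (0.08) and Zfp362 (0.08), and Smad7 to Ppfibp1 (0.12) and Gmfb (0.13).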

How the data were processed

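Hepatocyte RNA from 25 libraries of sorted cells was sequenced with QuantSeq 3′ FWD, per the labels' protocols, so counts depend on a gene's 3′ end and not on its length, and levels were not ranked between genes. The submitters' processing notes name FastQC, cutadapt, STAR 2.6.1d and the mm10 build (GRCm38). How reads were counted, with which gene models and whether by strand, is not given in the sources used here. Genes on the opposite strand overlap Tgfb2, Tgfb3, Bmp4, Inhba and Fst in GENCODE release M21, so the counts of these 5 are uncertain to that extent. The authors deposited raw counts per gene and library, with no normalization. No molecular identifiers are named, so counting intervals cover counting error only.

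Counts were analysed with edgeR 4.0.16 in R 4.3.3. Genes were kept by filterByExpr (minimum count 10, minimum total 15), libraries were scaled by TMM, and all 25 libraries entered 1 robust quasi-likelihood fit with a mean for each of the 7 groups (common dispersion 0.0425, prior count 0.125). P-values are two-sided and Benjamini-Hochberg adjusted across all 12970 genes tested (threshold 0.05). Net effects are differences of log2 fold changes, tested in the same fit. "Yap induction" is ApoYap Dox against ApoYap ctrl, and each 95% interval is log2 fold change with its standard error. Over the 33 pairs of libraries within a group, chi-square per degree of freedom was at least 7.69, so no library appeared to be deposited again within its group. Correlations in these pairs were at least 0.956. Pairs across groups were not compared. The script was tested on simulated counts in which few genes changed, so that test does not cover a shift of most genes as in Yap induction. The alternatives were RLE scaling, total counts alone, no filter, DESeq2 1.42.0, only the compared groups, the replicate number as a block and leaving out each library. Leaving out BL/6 Dox 1 and 2 together was chosen after seeing the data.

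The 10 genes, the pathway and marker lists and the tests were chosen with earlier results of these data known. The other named genes were up to 3 per pathway list chosen by smallest p from called genes whose average log2 CPM was 0 or more, the 2 genes with the nearest profile to each of the 10, and the most abundant markers. A gene that this rule would name is not reported here.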

Additional observations from a re-analysis of the deposited data

Results flagged for a closer look

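In 40 groups of 4 libraries (10 genes in 4 groups), 1 library stood apart from the rest of its group in 4 cases, where chance flags about 1 in 20 groups. These were Tgfb2 in BL/6 ctrl 2 (0.955 CPM, against 0.0786 to 0.225 in the other 3), Bmp4 in Lats1/2 flox ctrl 1 (17.2 CPM, against 7.27 to 8.40), Inhba in BL/6 ctrl 3 (17.7 CPM, against 11.7 to 12.3) and Tgfbr2 in ApoYap ctrl 3 (11.9 CPM, against 7.63 to 8.02). Groups of 3 were not tested.

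The effect of doxycycline differed between ApoYap and wild-type mice, by a test of the difference itself in edgeR, for Tgfb1 (4.44), Tgfb2 (4.98), Tgfb3 (3.98), Bmp4 (3.04), Inhba (1.14) and Tgfbr2 (1.31), as differences of log2 effects. The effect of AAV-Cre differed between floxed and wild-type mice for Tgfb1 (2.55), Bmp4 (4.17) and Inhba (1.16), and for Tgfb2 (adjusted p = 0.0066, with no count in BL/6 AAV-Cre). The time after the virus differed too.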

How the results depend on the processing

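The count of called genes among the 10 stayed within 1.5 times under most alternatives. With only the compared groups in the fit it was 4 for the Lats1/2 knockout (7 in the fit of all groups), 1 for doxycycline alone (0), 2 for AAV-Cre alone (1) and 2 for untreated floxed against BL/6 mice (1), and DESeq2 gave 2 for doxycycline alone. Leaving out 1 library gave 0 to 1 calls for AAV-Cre alone, 2 to 4 for the knockout net of AAV-Cre and 1 to 3 for the knockout less Yap induction. For Yap induction it gave 9 to 10 and for the knockout 5 to 7, and for Yap induction net of doxycycline 5 to 9. With only the compared groups, Fst was not called in the knockout (-1.71, adjusted p = 0.081, edgeR). Tgfb2 and Tgfb3 did not pass the filter on low counts in that fit. They reached the filter's floor in 2 and 1 of the Lats1/2 KO libraries and in 0 of Lats1/2 flox ctrl. The cause of the other moves was not tested. Total counts alone moved the median of all genes by 0.92 for Yap induction, 0.47 for the knockout, 0.93 and 0.46 for the net effects and -0.45 for the knockout less induction, and RLE moved it by 0.11 for Yap induction and 0.10 net of doxycycline. The share of calls that were higher went from 52.2% to 84.0% for induction and from 54.2% to 91.0% for the knockout with total counts. Against that shift, Inhba was called with induction (1.39), Tgfbr2 (1.07) and Smad7 (1.37) in the knockout, and Fst in the knockout (-1.31, adjusted p = 0.067) and the Inhbb difference (2.06, adjusted p = 0.060) were not. The direction turned with total counts for Twsg1 with induction (0.054), Inhbc (0.37) and Smad2 (0.11) in the knockout, Fst net of doxycycline (0.66) and net of AAV-Cre (0.18) and Bmp4 in the knockout less induction (-0.010). Of these only Twsg1 had been called. Leaving out 1 library took values through 0 that had not been called: Fst net of doxycycline (-0.57 to 0.080) and net of AAV-Cre (-0.66 to 0.13), and in the knockout Tgfbr1 (-0.10 to 0.23), Inhbc (-0.21 to 0.016) and Twsg1 (-0.075 to 0.18). For Tgfb2 and Tgfb3, with 10 and 2 counts in all ApoYap ctrl libraries, depth limits the size of the change.

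Replicate numbers are shared by the groups, but no comparison had every pair above 0.1: over 21 pairs the correlation of the deviations of same-numbered libraries ran from -0.24 to 0.21, with 5 above 0.1. All were above 0 for Yap induction (0.052 to 0.16) and for untreated floxed against BL/6 mice (0.022 to 0.21). With the number as a block 9 genes were called for Yap induction and 6 for the knockout, where Inhba (0.75, adjusted p = 0.057) and Smad6 were lost. Inhbb net of doxycycline was gained (2.95, adjusted p = 0.049) and Inhba net of AAV-Cre was lost (1.15, adjusted p = 0.060). The libraries that correlated best with the control of their own number were 2 of 3 in ApoYap Dox, 3 of 4 in Lats1/2 flox ctrl against BL/6 ctrl, 1 of 4 in ApoYap ctrl against BL/6 ctrl, and 0 in Lats1/2 KO, BL/6 Dox and BL/6 AAV-Cre.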
